A study of Rattus norvegicus with 12 samples.

Results

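S100a8, S100a9 and Lcn2 encode proteins that neutrophils carry and release as danger signals. They are 3 of the 32623 genes counted by RNA sequencing in rat urethral tissue and were chosen by their Ensembl IDs: ENSRNOG00000011557 for S100a8, ENSRNOG00000011483 for S100a9 and ENSRNOG00000013973 for Lcn2. The table of counts does not pair IDs with symbols and the rat gene table used here holds none of these IDs, so the names rest on the list that defined the 3 genes, and all 3 symbols exist in RefSeq. All animals were male rats, and the 12 libraries fall into 4 groups of 3: sham controls with no injury, mechanical urethral injury, injury followed by rapamycin, and injury followed by TDN. Rapamycin inhibits the mTOR kinase, and a TDN (tetrahedral DNA nanostructure) is a particle assembled from synthetic DNA strands. The sources used here do not give strain, age, dose, route, time of harvest or whether the injury group received vehicle. Nothing in the labels ties each library to an animal of its own, and the p-values below therefore speak only of the spread among libraries, part of which may be technical.

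As background, the S100A8 and S100A9 proteins pair to form calprotectin, which fills the neutrophil cytosol, binds calcium and withholds zinc and manganese from microbes. Once outside the cell, the pair signals through TLR4 and RAGE. Monocytes and stressed squamous epithelium also make both subunits. LCN2, or neutrophil gelatinase-associated lipocalin, captures bacterial siderophores and so keeps iron from bacteria. It is stored in neutrophil granules, and injured epithelia also transcribe it in response to NF-kB and C/EBP factors. Tissue RNA cannot tell fewer cells of a type from less RNA per cell. Markers of neutrophils, epithelium and muscle were not evaluated, because their IDs could not be matched to symbols, so the labelled tissue was not checked against its markers.

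The stretch before the start site is shown for S100a9 and Lcn2, the members with an entry in the RefSeq promoter table (build GRCr8). It is given as background, and its part in the levels of these genes was not tested. In that annotation S100a8 and S100a9 are direct neighbours on chromosome 2, with 0 genes between them. The S100a9 stretch lies at chr2:178490623-178490872 and the Lcn2 stretch at chr3:36081781-36082030, both on the minus strand. Each shows the 250 bases before the start, 5′ to 3′ in the direction of the gene, and capitals mark matches to the motifs searched.
S100a9: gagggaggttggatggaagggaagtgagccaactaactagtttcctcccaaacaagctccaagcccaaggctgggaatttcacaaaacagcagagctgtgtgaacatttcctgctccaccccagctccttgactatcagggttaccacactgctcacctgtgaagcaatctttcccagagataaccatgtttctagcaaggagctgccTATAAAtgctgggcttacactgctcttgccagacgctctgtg
Lcn2: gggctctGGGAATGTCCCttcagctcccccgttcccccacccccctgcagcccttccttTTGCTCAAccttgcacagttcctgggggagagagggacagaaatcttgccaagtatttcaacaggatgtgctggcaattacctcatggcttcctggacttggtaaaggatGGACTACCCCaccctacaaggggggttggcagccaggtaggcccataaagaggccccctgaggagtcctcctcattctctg

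The motifs, searched on both strands, were TATAAA for the TATA box, TTGCNNAA for C/EBP, GGGNNNNNCC for NF-kB, TGANTCA for AP-1 and TTCNNNGAA for STAT. The S100a9 stretch held 1 match, a TATAAA from 42 to 37 bases before the start, and 12.9% of the 33469 promoters in the table hold that motif. The Lcn2 stretch held a C/EBP match (TTGCTCAA) from 191 to 184 bases before the start, a motif found in 9.22% of promoters. It also held 3 matches to the NF-kB pattern. All 3 are given here in the letters of the strand shown. GGGAATGTCC and GGAATGTCCC overlap and together span 243 to 233 bases before the start, and GGACTACCCC lies 81 to 72 bases before it. GGGAATGTCC fits the pattern on the strand shown, while GGAATGTCCC and GGACTACCCC fit it when the other strand is read. The pattern is loose and occurs in 42.3% of promoters, and AP-1 and STAT matches occur in 6.34% and 7.67%. A match is a description of the letters and not a measured binding site.

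Total counts ran from 44765817 to 55928721 per library. Rapamycin replicate 2 stood apart from the rest, with the lowest total, 17475 detected genes (18659 to 19254 elsewhere) and a scaling factor (TMM) of 0.660 (0.873 to 1.13 elsewhere). The fold changes and the S100a8 mean of the rapamycin group are therefore also given without it. Levels are given as CPM, the counts of a gene scaled by library size and TMM factor.

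In sham tissue the calprotectin genes were low and uneven. S100a8, the calcium-binding subunit that S100a9 stabilises, stood at 0.256, 3.28 and 10.2 CPM in replicates 1 to 3. The lowest value rests on 14 counts, with an exact Poisson 95% interval of 7.65 to 23.5 counts that covers counting error only, and replicate 3 had 553. S100a9, its partner subunit, stood at 0.366, 2.70 and 7.62 CPM in the same libraries. Both genes thus had their lowest value in sham replicate 1 and their highest in replicate 3, a span of 39.6-fold for S100a8 and 20.8-fold for S100a9. Lcn2 was more even in sham, at 1.12, 2.49 and 2.74 CPM.

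All 3 genes were higher in each injury library than in any sham library, but the injury libraries differed widely among themselves. S100a8 was at 361, 48.0 and 12.5 CPM in injury replicates 1 to 3. S100a9 was at 504, 80.9 and 12.5 CPM, and Lcn2 at 507, 103 and 4.27 CPM. For each gene replicate 1 was the highest and replicate 3 lay close to the top of the sham range. The non-overlap of the groups is itself common here, since 19.4% of the 17521 tested genes were higher in every injury library than in every sham library.

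The fitted difference between injury and sham was large and imprecise. The log2 fold change was 4.94 for S100a8 (SE 1.62, 95% interval 1.38 to 8.51, edgeR quasi-likelihood test with Benjamini-Hochberg adjusted p = 0.135). It was 5.80 for S100a9 (SE 1.56, 95% interval 2.37 to 9.24, edgeR adjusted p = 0.0946) and 6.60 for Lcn2 (SE 1.51, 95% interval 3.27 to 9.92, edgeR adjusted p = 0.0654). None of the 3 was called at an adjusted p under 0.05, where the background was 0.651% of tested genes (114 genes). Their unadjusted p-values in edgeR were 0.0111, 0.00348 and 0.00116, and 195, 125 and 72 genes of all those tested had a larger log2 fold change than S100a8, S100a9 and Lcn2. The call turned on single libraries and on the tool. Without injury replicate 3 all 3 genes passed (edgeR adjusted p = 0.0492, 0.0268 and 0.0140 for S100a8, S100a9 and Lcn2), in a fit that called 11.9% of tested genes (2117). S100a9 and Lcn2 passed without rapamycin replicate 2 (edgeR adjusted p = 0.0489 and 0.0365, background 11%) and without the whole rapamycin group (edgeR adjusted p = 0.0411 and 0.0323, background 15.1%), and Lcn2 alone passed without rapamycin replicate 3 (edgeR adjusted p = 0.0485, background 1.71%). Without injury replicate 1 the log2 fold changes dropped to 2.73, 3.71 and 4.67 (edgeR adjusted p = 0.512, 0.316 and 0.193). DESeq2 called all 3 (adjusted p = 0.00197, 4.42e-05 and 3.67e-07), where it called 10.1% of the genes it gave an adjusted p (1845 genes). A replicate block in the edgeR fit gave 3.74, 4.26 and 5.46 (edgeR adjusted p = 0.247, 0.150 and 0.0990).

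**Figure D1:**
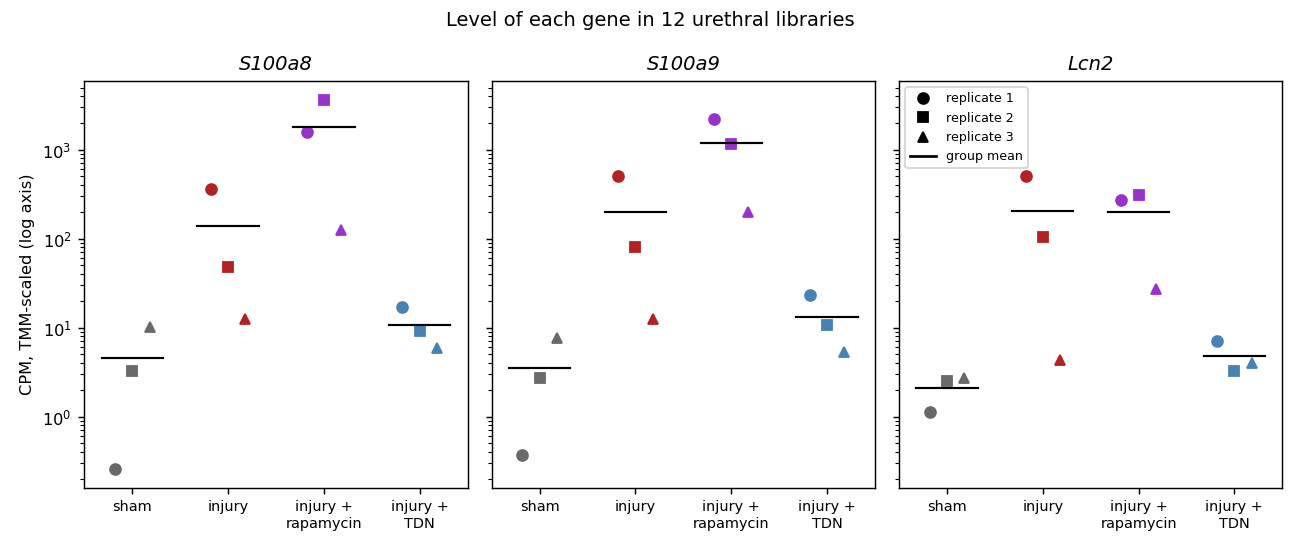
CPM of S100a8, S100a9 and Lcn2 after TMM scaling (log axis) in each of the 12 libraries, by group; symbols mark the replicate number and bars the group mean. Sham replicate 1 is the lowest library in all 3 panels, rapamycin replicate 2 is the highest for S100a8 and rapamycin replicate 1 the highest for S100a9, and the 3 TDN libraries sit between 3.25 and 23.2 CPM.

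The calprotectin genes reached their highest levels in injured tissue given rapamycin. S100a8 was at 1579, 3665 and 124 CPM in rapamycin replicates 1 to 3, and in replicate 2 it alone took 0.242% of all counts. S100a9 was at 2206, 1153 and 202 CPM. Lcn2 was at 270, 306 and 27.4 CPM. Replicate 3 was the lowest for each gene, yet every rapamycin library lay above every sham library for all 3. Such non-overlap was seen for 23.8% of tested genes in this comparison.

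Against sham the 3 genes rose in rapamycin tissue. The log2 fold change was 8.61 for S100a8 (SE 1.90, edgeR adjusted p = 0.0292), or 392-fold on the fitted scale. For S100a9 it was 8.38 (SE 1.75, edgeR adjusted p = 0.0265), or 333-fold, and for Lcn2 6.57 (SE 1.51, edgeR adjusted p = 0.0315), or 95-fold. The count of 3 called of 3 is to be read against a background of 12.3% of tested genes called in this comparison (2162 genes, 1672 higher and 490 lower). In all, 33, 42 and 110 genes had a larger log2 fold change than S100a8, S100a9 and Lcn2. Without rapamycin replicate 2 the values were 7.62 for S100a8, 8.47 for S100a9 and 6.20 for Lcn2 (edgeR adjusted p = 0.0462, 0.0371 and 0.0530), so that the call for Lcn2 was lost, in a fit that called 5.09% of genes. All 3 calls were also lost without any 1 of the sham libraries (adjusted p 0.0788 to 0.126 over these fits), where the background was 0.0056%, 0.0056% and 0.112% without replicates 1 to 3. The same held without rapamycin replicate 1 (adjusted p 0.0552 to 0.0565, background 0.443%) and in a fit of the 6 rapamycin and sham libraries alone (adjusted p = 0.0879, 0.0673 and 0.0620, background 0.202%). Removing a TDN library took away the Lcn2 call each time (adjusted p 0.0525 to 0.0548, background 3.22%, 2.36% and 2.62% without replicates 1 to 3) and the S100a8 call for replicates 2 and 3 (adjusted p = 0.0512 and 0.0506). DESeq2 called all 3, with a background of 30.9% (5625 genes).

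None of the 3 genes was called between rapamycin tissue and injury alone. Their unadjusted p-values in edgeR were 0.0345, 0.0810 and 0.982 for S100a8, S100a9 and Lcn2. The log2 fold change was 3.67 for S100a8 (SE 1.52, 95% interval 0.32 to 7.02, edgeR adjusted p = 0.902), 2.58 for S100a9 (SE 1.34, 95% interval -0.38 to 5.53, edgeR adjusted p = 0.902) and -0.03 for Lcn2 (SE 1.18, 95% interval -2.62 to 2.57, edgeR adjusted p = 0.996). The libraries of the groups overlapped for each gene: injury replicate 1 had more S100a8 and S100a9 than rapamycin replicate 3, and more Lcn2 than all 3 rapamycin libraries. Without injury replicate 1 the 3 values were 5.88, 4.67 and 1.90 (adjusted p 0.615 to 0.618), and without rapamycin replicate 2 they were 2.58, 2.58 and -0.48. The edgeR background was 0% (0 genes called; at an unadjusted p under 0.05, 523 were higher and 244 lower), and DESeq2 called 0.165% (30 genes), none of them these 3. The intervals leave room for a several-fold difference in either direction for Lcn2.

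TDN-treated tissue had low levels of all 3 genes. S100a8 was at 17.0, 9.08 and 5.84 CPM in TDN replicates 1 to 3. S100a9 was at 23.2, 10.8 and 5.38 CPM, and Lcn2 at 7.10, 3.25 and 3.97 CPM. The highest TDN library was above injury replicate 3 for each gene, so the TDN and injury groups overlapped. Set against injury, the log2 fold change was -3.72 for S100a8 (SE 1.52, 95% interval -7.08 to -0.36), -3.92 for S100a9 (SE 1.42, 95% interval -7.06 to -0.78) and -5.42 for Lcn2 (SE 1.42, 95% interval -8.56 to -2.28). None was called (edgeR adjusted p = 0.649 for each, unadjusted 0.0330, 0.0189 and 0.00302), against an edgeR background of 0% (0 genes called; at an unadjusted p under 0.05, 294 were higher and 780 lower). DESeq2 called 0.221% (42 genes), Lcn2 among them (log2 fold change -5.43, adjusted p = 0.00167). Injury replicate 1 decided much of the size: without it the 3 differences were -1.51, -1.83 and -3.49 (edgeR adjusted p = 0.990 for each).

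Between TDN and sham tissue no difference in these genes was called. The log2 fold change was 1.22 for S100a8 (SE 1.40, 95% interval -1.86 to 4.30), 1.88 for S100a9 (SE 1.32, 95% interval -1.02 to 4.78) and 1.17 for Lcn2 (SE 1.21, 95% interval -1.51 to 3.85), with an edgeR adjusted p of 1 for each. Sham replicate 3 lay within the TDN range for both calprotectin genes. Lcn2 was higher in every TDN library than in every sham library, as were 15.7% of tested genes. In this comparison the edgeR fit of all 12 libraries called 0% of genes (0 genes). At an unadjusted p under 0.05, 688 were higher and 242 lower. DESeq2 called 1.66% (309 genes), none of them these 3. The intervals above use a spread shared by all groups. An edgeR fit of the 6 TDN and sham libraries alone called 5.88% (993 genes), again none of these 3. Its edgeR adjusted p was 0.467, 0.257 and 0.137 for S100a8, S100a9 and Lcn2 (unadjusted 0.252, 0.0860 and 0.0263). There Lcn2 had a log2 fold change of 1.197 with an SE of 0.425, against an SE of 1.21 with all libraries. With upper bounds of 4.30, 4.78 and 3.85, the intervals leave room for clearly higher levels in TDN, so the data do not show that TDN tissue matched sham. Without sham replicate 3 the differences for S100a8 and S100a9 were 2.59 and 3.09.

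Both treatments were compared directly as well. Every TDN library lay below every rapamycin library for all 3 genes, as 17.4% of tested genes did. The log2 fold change of TDN against rapamycin was -7.39 for S100a8 (SE 1.81), -6.50 for S100a9 (SE 1.61) and -5.40 for Lcn2 (SE 1.42), with an edgeR adjusted p of 0.161 for each. Here too edgeR called 0% of genes (0 genes; at an unadjusted p under 0.05, 1102 were higher and 3158 lower). DESeq2 called 9.33% (1577 genes), including all 3 (adjusted p = 5.97e-06, 3.03e-05 and 2.22e-04). The edgeR calls for all 3 appeared without rapamycin replicate 3, the library of that group with the lowest levels of the 3 genes (adjusted p = 0.0247 for each), in a fit that called 26.8% of genes (4788). Without rapamycin replicate 2 the differences were -6.35, -6.55 and -4.99 for S100a8, S100a9 and Lcn2 (edgeR adjusted p = 0.304, 0.304 and 0.314).

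**Figure D2:**
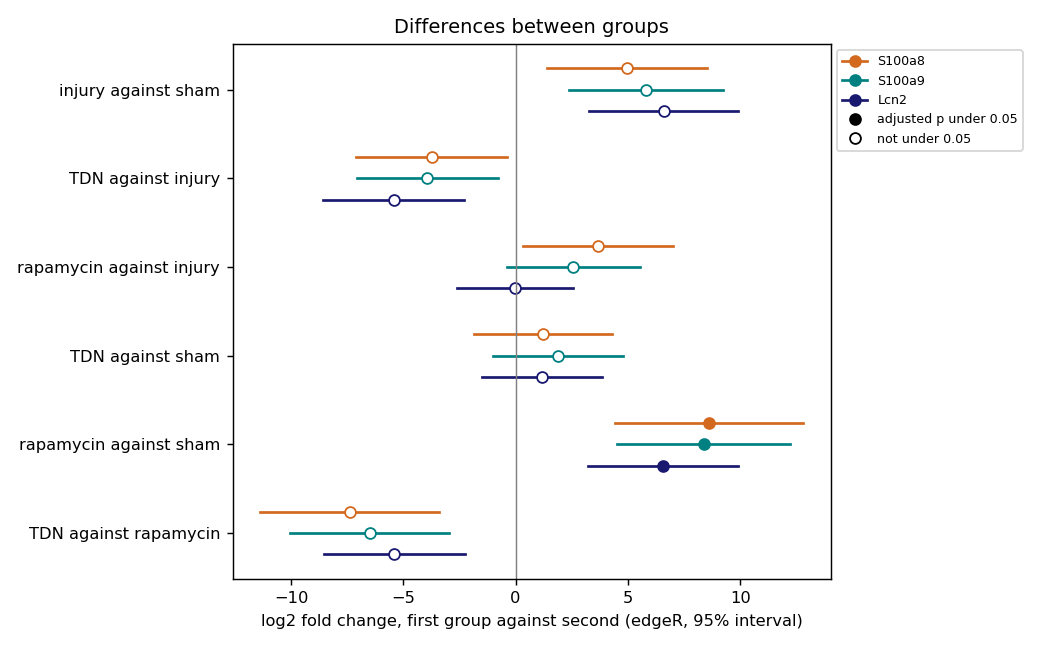
Fitted log2 fold changes of the 3 genes in the 6 comparisons of groups, with 95% intervals from edgeR; filled points have an adjusted p under 0.05. Points are filled for rapamycin against sham alone, and the intervals for TDN against sham and for S100a9 and Lcn2 in rapamycin against injury cross 0.

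The group means gave an order for each gene. For S100a8 the order was rapamycin (1790 ± 1780 CPM), injury (141 ± 192), TDN (10.6 ± 5.8) and sham (4.56 ± 5.07; SD, n = 3 each). S100a9 followed the same order, with 1187 ± 1003, 199 ± 266, 13.1 ± 9.1 and 3.56 ± 3.70 CPM (SD, n = 3 each). For Lcn2, injury and rapamycin had nearly equal means (205 ± 266 and 201 ± 151 CPM), followed by TDN (4.77 ± 2.05) and sham (2.11 ± 0.87; SD, n = 3 each). Single libraries set the size of several means. The S100a8 mean was 852 CPM in rapamycin without replicate 2, 30.3 in injury without replicate 1 and 1.77 in sham without replicate 3. The S100a9 mean was 678 CPM in rapamycin without replicate 1, 46.7 in injury without replicate 1, 8.09 in TDN without replicate 1 and 1.53 in sham without replicate 3. With any 1 of the 12 libraries left out, the order for S100a8 and S100a9 was still the same. For Lcn2 the near equality rests on injury replicate 1, since without it the injury mean was 53.7 CPM. No 2 neighbours in the orders of all libraries differed by the edgeR test, and only the step from sham to rapamycin did. With no TMM factor, on total counts alone, the rapamycin mean of S100a8 was 1310 CPM.

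The libraries with the most of these transcripts also differed from the rest in other measures. Rapamycin replicates 2 and 1 and injury replicate 1 had the highest combined level of the 3 genes (mean of the standardised log2 CPM). The same 3 libraries had the lowest TMM factors of the 12 (0.660, 0.873 and 0.912). They also lay farthest from the sham mean over all tested genes, at 2.56, 1.62 and 1.74 in root mean square log2 CPM, where the 9 other libraries lay at 0.559 to 1.42. The part of these differences in the levels of the 3 genes was not tested.

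Within each group the 3 genes spread more than most tested genes, though not all of them stood out. The SD of log2 CPM over the 3 sham libraries was 2.61 for S100a8 and 2.15 for S100a9, where the median tested gene had 0.174. Only 0.771% and 1.33% of tested genes had an SD in sham as high as these. Both SDs include sham replicate 1, with 14 and 20 counts, and the shares take no account of a gene's level. Lcn2 had an SD of 0.69 in sham, reached by 10.9% of genes. In injury Lcn2 was the most uneven of the 3, with an SD of 3.50 that 0.405% of genes reached, beside 2.44 for S100a8 (1.77% of genes) and 2.67 for S100a9 (1.24%). In rapamycin the SDs were 2.54, 1.78 and 1.96 for S100a8, S100a9 and Lcn2, values reached by 4.56%, 13.5% and 10.6% of genes in that more variable group. TDN libraries gave 0.77, 1.05 and 0.58, reached by 7.80%, 4.83% and 12.6% of genes, where the median gene had 0.185. No test of these spreads was made.

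**Figure D3:**
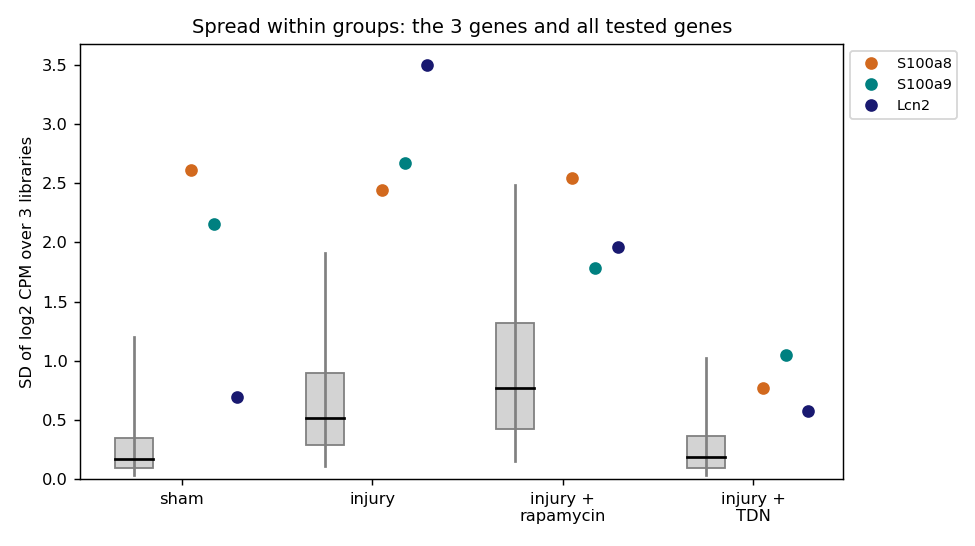
SD of log2 CPM over the 3 libraries of each group for S100a8, S100a9 and Lcn2 (coloured points) beside all 17521 tested genes (grey box from the 25th to the 75th percentile, black line at the median, whisker from the 5th to the 95th percentile). All 3 genes lie above the box in every group, and S100a8 and S100a9 lie far above the whisker in sham.

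Across the 12 libraries the 3 genes went up and down together, within groups as well as between them. For S100a8 and S100a9 Pearson's r of log2 CPM was 0.985 and Spearman's rho 0.986 (permutation p = 2e-05 for both, the smallest that 100000 resamples give; adjusted over the 3 pairs 6e-05 and 2e-05). For S100a8 and Lcn2 r was 0.918 and rho 0.944 (permutation p = 0.0001 and 2e-05, adjusted 0.0001 and 2e-05). For S100a9 and Lcn2 r was 0.939 and rho 0.944 (permutation p = 4e-05 and 2e-05, adjusted 6e-05 and 2e-05). These permutations shuffled all 12 libraries across groups, so differences between group means alone can make the p-values small. Without rapamycin replicates 1 and 2, the libraries farthest from the median, r was 0.992, 0.880 and 0.905. After each group's mean was subtracted, r was 0.945 for S100a8 and S100a9, 0.828 for S100a8 and Lcn2 and 0.875 for S100a9 and Lcn2 (exact two-sided permutation within groups over 1296 arrangements, p = 0.00309, 0.00154 and 0.00463, adjusted p = 0.00463 for each). Both values of a pair come from 1 library and share its scaling factor. High correlation was also common among other genes. Of 14728 others, 4.54% had an r of at least 0.9 with the combined level of the 3, and 3.69% had -0.9 or lower. These shares are over the 12 libraries with group means left in. No share over all genes was computed for the correlations within groups, so how common such values are there is not known.

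Ratios of counts within a library do not depend on scaling. They are no measure of which transcript is more abundant, since counts also grow with transcript length, but they can be compared between libraries. The ratio of S100a8 to S100a9 counts was 0.700, 1.21 and 1.33 in sham replicates 1 to 3 and 0.717, 0.594 and 1.003 in injury. It was 0.734, 0.841 and 1.09 in TDN. In rapamycin replicates 1 and 3 it was 0.716 and 0.616, but in replicate 2 it was 3.18, the highest of the 12 libraries. That library, the one with the fewest detected genes, is thus also the one in which the balance of the 2 subunits differed most. On the log2 scale the group means were 0.06 ± 0.50 in sham, -0.41 ± 0.38 after injury, 0.16 ± 1.31 with rapamycin and -0.19 ± 0.29 with TDN (SD, n = 3 each). No pair of groups differed beyond the spread (exact two-sided permutation p 0.3 to 1 over 6 pairs, adjusted p = 1; 0.1 is the smallest that 3 libraries against 3 can give). Without rapamycin replicate 2 the difference between rapamycin and injury turned from 0.57 to -0.18.

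Relative to S100a9, Lcn2 was lowest in rapamycin tissue. The ratio of Lcn2 to S100a9 counts was 0.122, 0.265 and 0.136 in rapamycin replicates 1 to 3, below each of the 9 other libraries. It was 1.006, 1.27 and 0.343 in injury, 0.306, 0.301 and 0.737 in TDN and 3.05, 0.922 and 0.359 in sham. The mean log2 ratio was -2.61 ± 0.61 in rapamycin, -0.39 ± 1.009 in injury, -1.29 ± 0.74 in TDN and 0.00 ± 1.55 in sham (SD, n = 3 each). The difference between rapamycin and injury was -2.22, and the groups did not overlap (exact two-sided permutation p = 0.1, the smallest possible, adjusted over 6 pairs p = 0.2). Leaving out single libraries gave differences of -2.79 to -1.84. Rapamycin also differed without overlap from sham (-2.61) and from TDN, whose ratio was 1.32 higher (exact permutation p = 0.1 and adjusted p = 0.2 for both). Injury and sham differed by -0.40 (exact permutation p = 0.9, adjusted p = 0.9). This ratio was chosen after its values were seen, and none of its differences passed the correction.

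**Figure D4:**
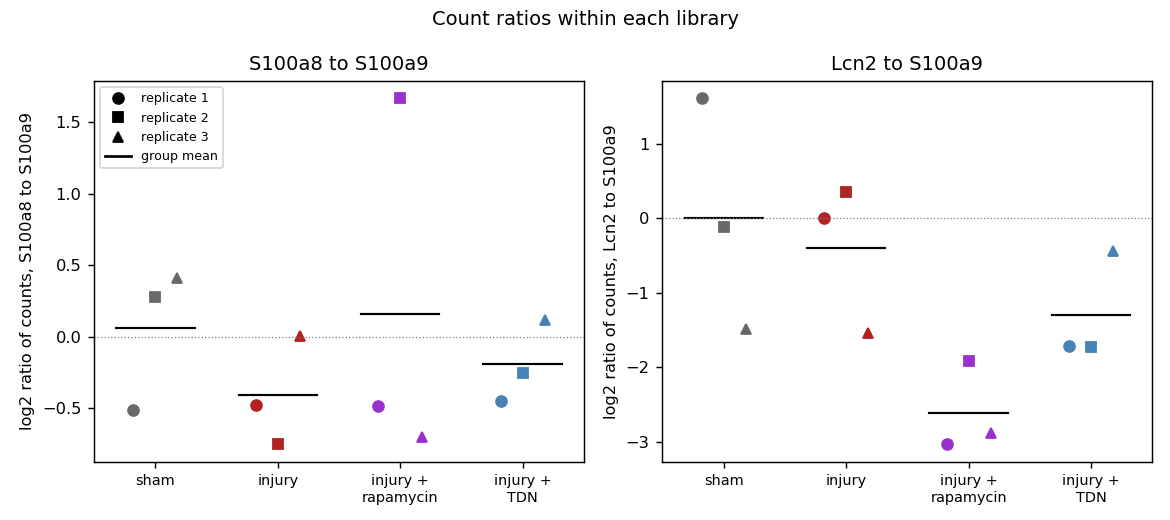
log2 ratio of counts within each library, S100a8 to S100a9 on the left and Lcn2 to S100a9 on the right, by group; symbols mark the replicate number and bars the group mean. On the left rapamycin replicate 2 stands at 1.67 above all others, and on the right the 3 rapamycin libraries lie at -1.91 or lower, below the other 9.

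The genes whose pattern over the 12 libraries was most like the 3 were found by Pearson's r of log2 CPM with their combined level, among 14728 other genes with a mean of at least 1 CPM. ENSRNOG00000009907 had the highest value, 0.987. It stood at 0.168 ± 0.147 CPM in sham, 13.6 ± 19.2 after injury, 151 ± 127 with rapamycin and 1.10 ± 0.80 with TDN (SD, n = 3 each). ENSRNOG00000055716 followed with 0.981, at 0.185 ± 0.117 CPM in sham, 14.99 ± 17.7 after injury, 50.4 ± 48.7 with rapamycin and 1.41 ± 0.72 with TDN (SD, n = 3 each). Both had the same order of group means as the calprotectin genes, from rapamycin through injury and TDN to sham. That order follows largely from how they were picked and is no separate support. Both lay below 1 CPM in sham and met the limit on the mean through the other groups, mainly rapamycin and injury. A likeness of this kind was shared by many genes, since 668 of the 14728 (4.54%) had an r of at least 0.9 and the median was -0.07. These 2 genes are given by ID because no table here pairs them with a symbol.

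The stability of the contrast with sham is shown for injury and for rapamycin. In all 18 alternatives for injury the log2 fold change of each gene kept its sign, from 2.73 to 6.31 for S100a8, 3.71 to 7.02 for S100a9 and 4.67 to 7.17 for Lcn2. In all 17 alternatives for rapamycin the values ran from 7.62 to 9.98 for S100a8, 7.25 to 9.59 for S100a9 and 5.84 to 7.08 for Lcn2.

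**Figure D5:**
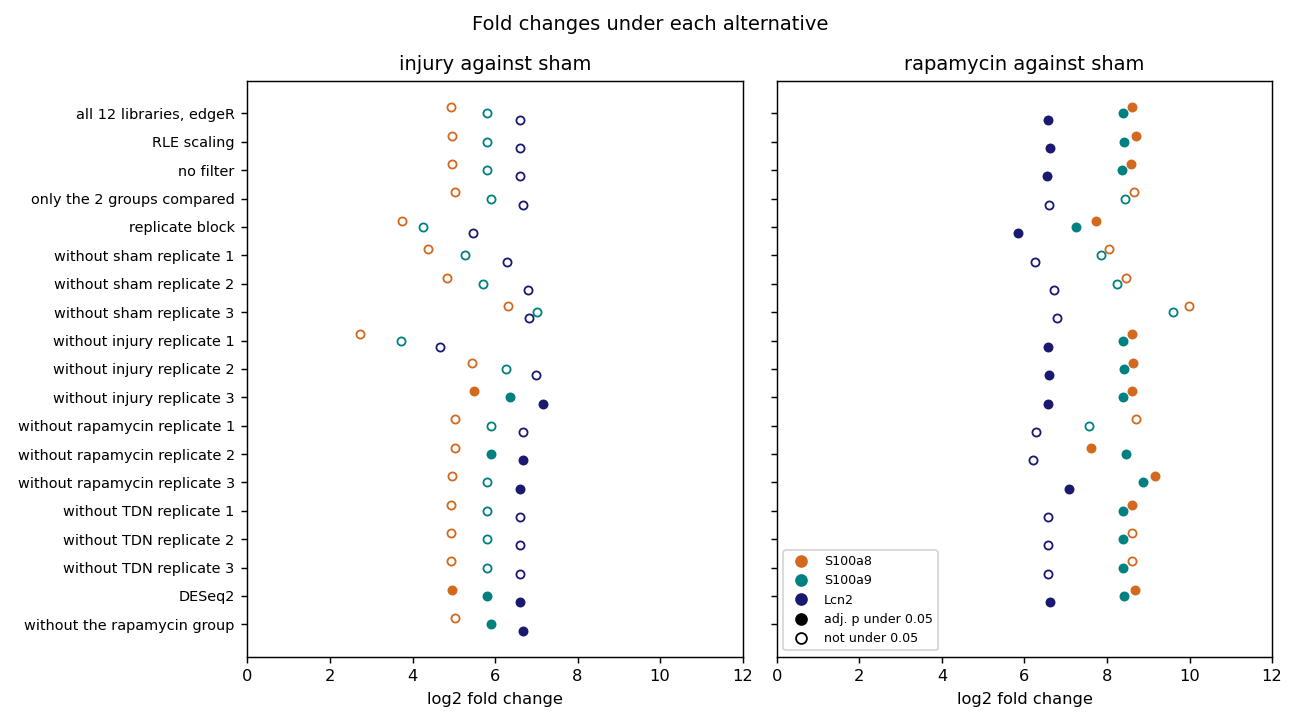
log2 fold change of S100a8, S100a9 and Lcn2 against sham, for injury on the left and rapamycin on the right, in the fit of all 12 libraries and under each alternative; filled points have an adjusted p under 0.05. All points lie above 0, which the non-overlap with sham made likely, while the calls come and go with single libraries and with the tool.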

How the data were processed

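Poly(A)-enriched libraries of urethral RNA were sequenced on an Illumina platform, per the labels' protocols. The authors deposited unnormalized counts per gene, and per the submitters' processing notes the genome build was Rnor 6.0. How reads were aligned and counted, with which annotation and strand setting, is not given in the sources used here. Of the columns of the table, 3 match no labelled sample and were not used.

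Counts of all genes were tested with edgeR 4.0.16 (quasi-likelihood test, R 4.3.3) after TMM scaling and the default expression filter, which kept 17521 genes including the 3 studied, with 1 coefficient per group over the 12 libraries. Standard errors were derived from the fold change and the F statistic. Log2 CPM used a prior count of 2. DESeq2 1.42.0 was an alternative, as were RLE scaling, no filter, fits of fewer groups, a replicate block and fits without each library in turn. Permutation tests used SciPy 1.17.1. The edgeR script was tested on simulated data with a smaller spread than these libraries have. That test therefore does not bear on calls at the spread seen here. Replicate numbers are shared across groups; between sham and injury each same-numbered pair had deviations that correlated above 0.1 (0.107, 0.138 and 0.261). No other comparison had all 3 pairs above 0.1, but rapamycin against injury came close, at 0.0921, 0.156 and 0.550. Differently numbered pairs were not computed for comparison, so these values cannot show whether replicate numbers mark a pairing. The labels themselves state no pairing.

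The 3 genes, the gene lists and the rule for naming genes (the 3 members, and the 2 IDs most like them where no symbols match) were chosen with earlier results of these data known. Lists and markers fixed by symbol were not evaluated, since the gene table (47357 rat genes, GRCr8) holds 0 Ensembl IDs to match.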

Additional observations from a re-analysis of the deposited data

How the results depend on the processing

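With 3 libraries a group and a spread shared by all groups, calls came and went with the tool and with single libraries. Where the libraries of 2 groups did not overlap, as for injury and rapamycin against sham, leaving out 1 library could hardly turn the sign. The sign of the fold changes turned nowhere, except for Lcn2 in rapamycin against injury. That difference was -0.03, and 0.0306 with RLE scaling, 0.38 with the replicate block, 0.0206 in DESeq2 and -0.60 to 1.90 when single libraries were left out. For injury against sham DESeq2 gave 4.95, 5.81 and 6.60 for S100a8, S100a9 and Lcn2, all called, and the fit without the rapamycin group called S100a9 (5.89) and Lcn2 (6.67). Leaving out single libraries gave 2.73 to 6.31, 3.71 to 7.02 and 4.67 to 7.17. For rapamycin against sham the fit of these 6 libraries gave 8.65, 8.43 and 6.60, none called, and leaving out single libraries gave 7.62 to 9.98, 7.57 to 9.59 and 6.20 to 7.08. For TDN against injury DESeq2 gave -5.43 for Lcn2, called. For TDN against rapamycin DESeq2 gave -7.46, -6.53 and -5.45, all called, and leaving out single libraries gave -7.94 to -6.35, -7.19 to -5.65 and -5.91 to -4.99. The cause of these changes was not tested. The replicate block changed no call of the 3 genes: injury against sham gave 3.74, 4.26 and 5.46, and rapamycin against sham 7.74, 7.25 and 5.84.

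Over all genes, 114 were called for injury against sham, beside 0 in the fit of 6 libraries, 2616 without the rapamycin group, 1845 in DESeq2 and 0 to 2117 without single libraries. For rapamycin against sham 2162 became 1157 with no filter, 34 in the fit of 6 libraries, 5625 in DESeq2 and 1 to 7249 without single libraries. The 0 calls elsewhere became 42 (TDN against injury), 30 (rapamycin against injury), 309 (TDN against sham) and 1577 (TDN against rapamycin) in DESeq2. TDN against sham had 993 in the fit of 6 libraries and 10 without the rapamycin group. Without single libraries the ranges were 0 to 3 for rapamycin against injury, 0 to 16 for TDN against sham and 0 to 4788 for TDN against rapamycin.

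Without single libraries the log2 ratio of S100a8 to S100a9 differed by -0.18 to 1.002 between rapamycin and injury, -0.65 to 0.53 between rapamycin and sham and -0.79 to 0.40 between TDN and rapamycin, and that of Lcn2 to S100a9 by -1.14 to 0.40 between injury and sham. Group means of CPM moved by less than 1 SD under the other scalings, a loose limit because several SDs were about as large as the mean. For S100a8 in rapamycin the mean went from 1790 CPM (SD 1780) to 1310 CPM on total counts alone. Depth limits mainly S100a8 and S100a9 in sham replicate 1, with 14 and 20 counts.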
